A study of Mus musculus with 12 samples.

Results

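The genes described here are named as nuclear-encoded subunits of the 5 complexes of mitochondrial oxidative phosphorylation. They were taken and assigned to a complex by gene symbol alone: Nduf followed by a, b, c, s or v and a digit for complex I, Sdha to Sdhd for complex II, symbols starting with Uqcr for complex III, Cox4 to Cox8 for complex IV and symbols starting with Atp5 for complex V, without pseudogene symbols. This gave 84 of the 24062 genes in the count table, of which 37 belong to complex I, 4 to complex II, 8 to complex III, 18 to complex IV and 17 to complex V. By function some symbols mislead: Atp5sl (Dmac2), counted under complex V, is an assembly factor of complex I, Atp5s (Dmac2l), also under V, is related to it, and Ndufa4, counted under complex I, is now placed in complex IV. RNA-Seq had been done on mouse embryonic fibroblasts (MEFs) that carried a retroviral shRNA, either shRenilla, a control against a luciferase that these cells lack, or shBruce#1, which targets Birc6, the gene of the giant ubiquitin ligase BRUCE. Each line was measured in fully supplemented medium (FM) and after 2 h in medium without serum and amino acids (Starv), with 3 libraries in each of the 4 conditions. Both lines thus carry an integrated shRNA vector, and each shRNA is represented by a single line, so other differences between the lines cannot be told apart from the knockdown. The sources used here do not say whether the 3 libraries of a condition came from separate cultures, and the p-values then measure the spread between these libraries, which may be technical.

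The respiratory chain passes electrons from NADH (complex I) and succinate (complex II) through complex III and cytochrome c to complex IV, where oxygen is reduced. Complexes I, III and IV pump protons, and complex V, the ATP synthase, uses the proton gradient to make ATP. Most subunits are encoded in the nucleus by short transcripts, while the catalytic cores of complexes I, III, IV and V also contain subunits encoded by the mitochondrial genome, which are not analysed here. Transcription of many nuclear subunit genes is known to involve the ETS factor GABP (NRF2), NRF1 and YY1, with coactivators of the PGC-1 family.

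Total counts per library ranged from 7717265 to 18510540, and the 84 members took between 0.914% and 1.68% of them. Birc6 had 4682, 3273 and 5061 normalized counts (counts scaled to a common library size) in the shRenilla FM libraries and 1207, 1265 and 1390 in the shBruce FM libraries. In Starv it had 4759, 4712 and 2787 in shRenilla and 1175, 703 and 1226 in shBruce, so the knockdown was visible in every library. The log2 fold change of Birc6 was -1.75 ± 0.246 (SE) in FM, which missed the threshold in the edgeR quasi-likelihood test (adjusted p = 0.0627), and -1.98 ± 0.249 in Starv (adjusted p = 0.0186). The summed level of the 12 fibroblast markers in the table lay between 130700 and 200100 normalized counts in every library, while the sums of leukocyte, endothelial, epithelial, striated muscle and neural markers were at most 192, 64.0, 16.2, 90.8 and 418 normalized counts. The neural sum (Tubb3, Snap25 and Sox10) differed between the lines without overlap, with 161 to 215 in shRenilla and 258 to 301 in shBruce cells in FM and 286 to 333 and 384 to 418 in Starv, and the leukocyte sum did so in FM (99.5 to 105 against 117 to 192). Their part in the differences between the lines was not tested. Of the 12 libraries, 2 stood apart: shBruce Starv replicate 1 had the fewest counts, and shBruce Starv replicate 3 resembled the shRenilla libraries in its member levels although its Birc6 count was low. Both had low sample quality weights, of 0.175 and 0.171 on a scale where the highest was 3.49.

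A filter on low counts left 76 of the 84 members for testing, among 12154 genes in all. Of the 8 members left out, 4 had no count in any library (Cox7b2, Cox8b, Cox8c and Ndufs5), and Cox4i2, Cox6b2, Ndufa4l2 and Cox7a1 reached at most 1, 2, 5 and 8 counts in a library. All of these but Ndufs5 are isoforms or homologs with expression that is known to be restricted to certain tissues or conditions. Ndufs5 encodes an accessory subunit of complex I that is part of the complex in all tissues, and 35.6% of the 50-base windows of its transcript also occur in a transcript of another gene, an annotated pseudogene. Its 0 in every library is given as listed and not as an absence of expression, and its source was not tested. Members with more shared windows did have counts: Ndufa12, at 53.8%, had 1140 to 2021 per library, and Atp5g2, at 100%, had 6 to 28. Because reads of 50 bases were counted, such windows could be lost or split, and 19 of the 84 members shared at least 20% of their windows with other genes.

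Among the members, Atp5b, which encodes the catalytic beta subunit of ATP synthase, had the highest level per length, at 14970 normalized counts per kb of transcript averaged over the 12 libraries. In shRenilla FM cells its level was 14990 ± 545 per kb (SD, n = 3). Cox6b1, Atp5k and Cox4i1 followed with 7863, 7467 and 7317 normalized counts per kb, and the SD over the shRenilla FM libraries (569, 926 and 561) was as large as the distances between them. Within complex II, Sdhc (a membrane anchor) was at 2022 ± 78.9 normalized counts per kb in shRenilla FM cells, Sdhd (the other anchor) at 1836 ± 61.2, Sdha (the flavoprotein) at 1703 ± 65.6 and Sdhb (the iron-sulfur subunit) at 1351 ± 152 (SD, n = 3). In shBruce Starv cells Sdhd and Sdha, at 1710 ± 209 and 1589 ± 221 per kb, did not differ beyond their spread. Several of the lowest levels belonged to genes that share sequence with other genes, but sharing and level did not always go together. Ndufa12, with 53.8% of its windows shared, averaged 2793 normalized counts per kb, and Atp5s, with 0.0% shared, averaged 46.6. Atp5l, Atp5g2 and Cox7c averaged 17.1, 37.8 and 60.5 normalized counts per kb, and 84.8% of the 50-base windows of Atp5l, every window of Atp5g2 and 53.0% of those of Cox7c occurred in other genes' transcripts, so these levels are uncertain.

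For subunits with alternative isoforms, the ubiquitous form was the one measured at a high level. Cox6a1 averaged 6674 normalized counts per kb, against 16.1 for the heart and muscle isoform Cox6a2. Cox7a2 averaged 4423 per kb and its muscle isoform Cox7a1 12.1. Cox4i1 was at 7317 per kb, while its hypoxia-responsive isoform Cox4i2 had 1 count in 1 of the 12 libraries. Ndufa4, long assigned to complex I and now placed in complex IV, was at 5916 per kb and its homolog Ndufa4l2 at 2.84. Of the 3 genes for the identical mature c-subunit of ATP synthase, Atp5g3 was at 6135 per kb and Atp5g1 at 199, and the latter shared 56.2% of its windows with other genes.

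The difference between the lines in Starv was the largest of the comparisons for these genes. Of the 76 members tested, 53 (69.7%) were higher in shBruce than in shRenilla MEFs after 2 h of starvation and 0 were lower, by the edgeR quasi-likelihood test at an adjusted p under 0.05, against 12.8% of all tested genes that were higher and 11.2% that were lower. The median log2 fold change was 0.75 for the members and -0.0012 for all tested genes, and 70 of the 76 members had a fold change above 0. At an unadjusted p under 0.05 in edgeR, 58 of the 76 members passed, against 5009 of all 12154 tested genes. The calls rest on few libraries. When only the 6 Starv libraries were fitted, edgeR called 0 members and 0 of all genes, with 55 members at an unadjusted p under 0.05. Likewise 0 members were called when replicate 1 or 2 of shRenilla Starv or replicate 2 of shBruce Starv was left out of the joint fit. Of all genes, 0.0%, 0.0% and 0.0407% were then higher and 0.0%, 0.0% and 0.0814% lower. In these fits 55, 53 and 52 members had an unadjusted p under 0.05, and the calls were lost for nearly all genes alike. For the fits with fewer libraries no count of all genes at an unadjusted p under 0.05 is given. In contrast, 10 members were called without replicate 1 of shBruce Starv and 59 without its replicate 3. In those last fits 1.84% and 22.2% of all genes were higher. The median log2 fold change with single libraries left out lay between 0.51 and 0.93.

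**Figure D1:**
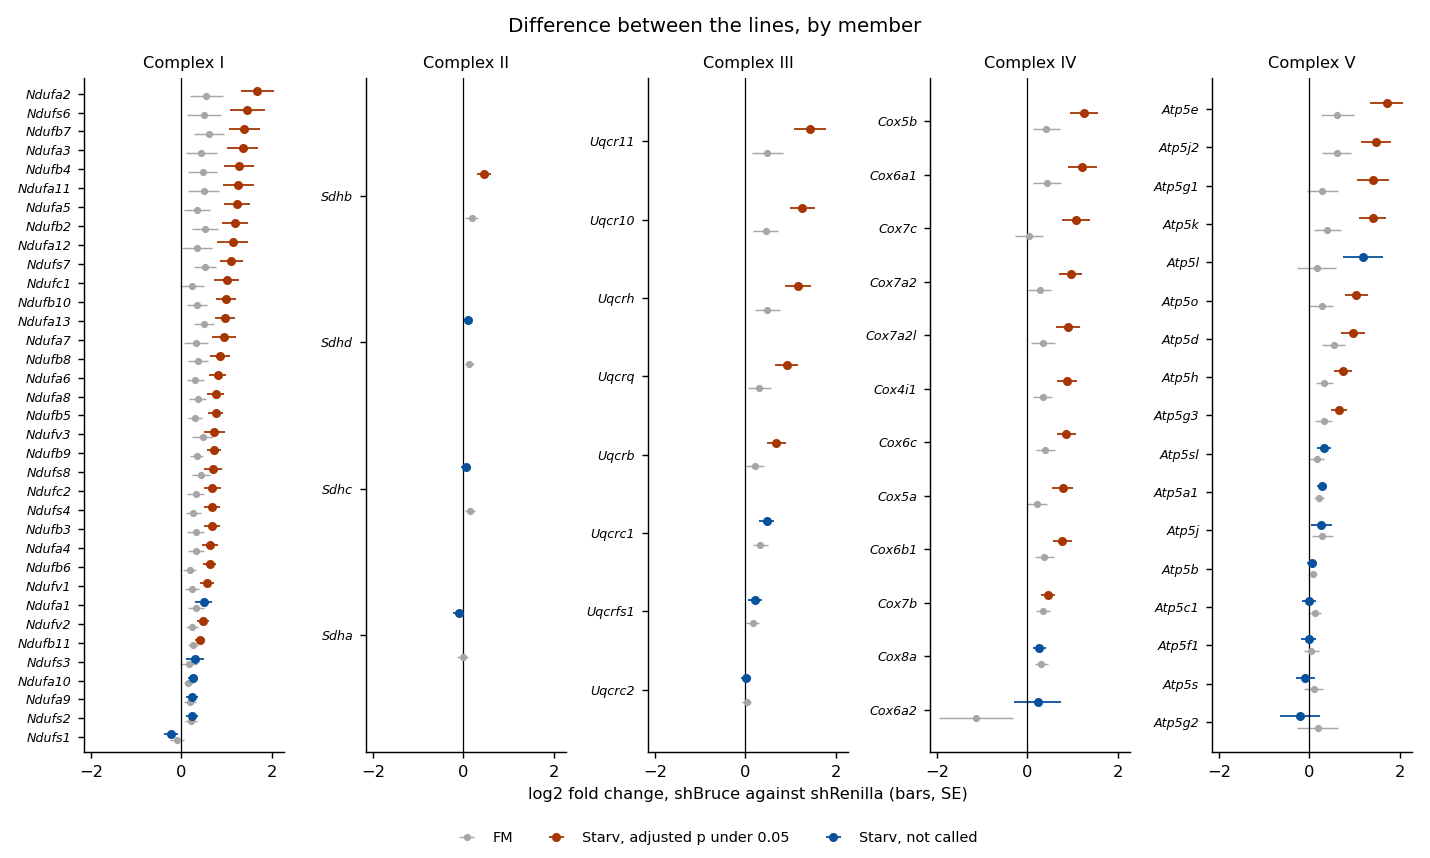
Log2 fold change between shBruce and shRenilla MEFs for each of the 76 tested members, grouped by complex and ordered by the value in Starv. Grey points are FM, coloured points are Starv (red, adjusted p under 0.05; blue, not called), and bars are standard errors. In Starv 53 members are red and lie to the right of 0, and most FM points lie between 0 and the Starv points.

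Atp5e, which encodes the epsilon subunit of ATP synthase, showed the largest difference. It had 1291, 1380 and 1927 normalized counts in the shRenilla Starv libraries and 9003, 3809 and 2232 in the shBruce Starv libraries. The groups did not overlap, but shBruce replicate 1 was far above the others. The log2 fold change was 1.71 ± 0.372 (SE, edgeR adjusted p = 0.0225), and it lay between 0.96 and 2.06 when single libraries were left out. The exact permutation test gave p = 0.1, the smallest value that 3 libraries against 3 allow.

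Ndufa2, an accessory subunit of complex I, had 1128, 1104 and 1615 normalized counts in shRenilla Starv and 7442, 3112 and 1831 in shBruce Starv, with the same order among the shBruce libraries as Atp5e (log2 fold change 1.68 ± 0.371, adjusted p = 0.0225 by edgeR). Uqcr11, a small subunit of complex III, went from 1067, 1041 and 1399 to 5624, 2526 and 1404 normalized counts, so that shBruce replicate 3 was level with the highest shRenilla library (1.44 ± 0.354, adjusted p = 0.0234 by edgeR). Atp5j2, the f subunit of ATP synthase, and Ndufs6, which carries a zinc site in complex I, had log2 fold changes of 1.48 ± 0.332 and 1.46 ± 0.384. All of these rested in large part on shBruce replicate 1. Without it the log2 fold changes were 0.93 for Ndufa2, 0.73 for Uqcr11, 0.90 for Atp5j2 and 0.72 for Ndufs6, and the calls of Uqcr11 and Ndufs6 were lost (edgeR adjusted p = 0.0552 and 0.0778). Without replicate 3 they were 2.04, 1.79, 1.82 and 1.84. In Ndufs6 the groups overlapped, since shBruce replicate 3 (492) lay below shRenilla replicate 3 (543 normalized counts).

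Of the smallest differences that passed the test, that of Ndufb11 was even across libraries. Ndufb11, an accessory subunit of complex I encoded on the X chromosome, had 681, 666 and 804 normalized counts in shRenilla Starv and 977, 1000 and 880 in shBruce Starv, without overlap (log2 fold change 0.41 ± 0.115, adjusted p = 0.0286 by edgeR). Sdhb had 1264, 1236 and 1521 normalized counts in shRenilla Starv against 2136, 1869 and 1518 in shBruce Starv, where shBruce replicate 3 fell just under the highest shRenilla library (0.46 ± 0.147, adjusted p = 0.0413 by edgeR). Cox7b (0.46 ± 0.155), Ndufv2 (0.48 ± 0.136) and Ndufv1 (0.56 ± 0.152), the last 2 of which encode subunits of the NADH-binding part of complex I, completed this group. Without shBruce replicate 1 the log2 fold changes of these 5 were 0.38, 0.32, 0.43, 0.42 and 0.43 in the order given and none was called.

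All 3 shBruce Starv libraries lay above all 3 shRenilla Starv libraries for 35 of the 76 members, against 16.4% of all tested genes. The reverse held for 0 members, against 2244 of all 12154 tested genes. Taken singly, shBruce Starv replicate 1 was above all shRenilla Starv libraries for 61 members, replicate 2 for 71 and replicate 3 for 38, against 41.2%, 41.7% and 35.0% of all tested genes. Uqcr11 and Sdhb, in the plot of normalized counts by library, show how replicate 3 brought the groups together.

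**Figure D2:**
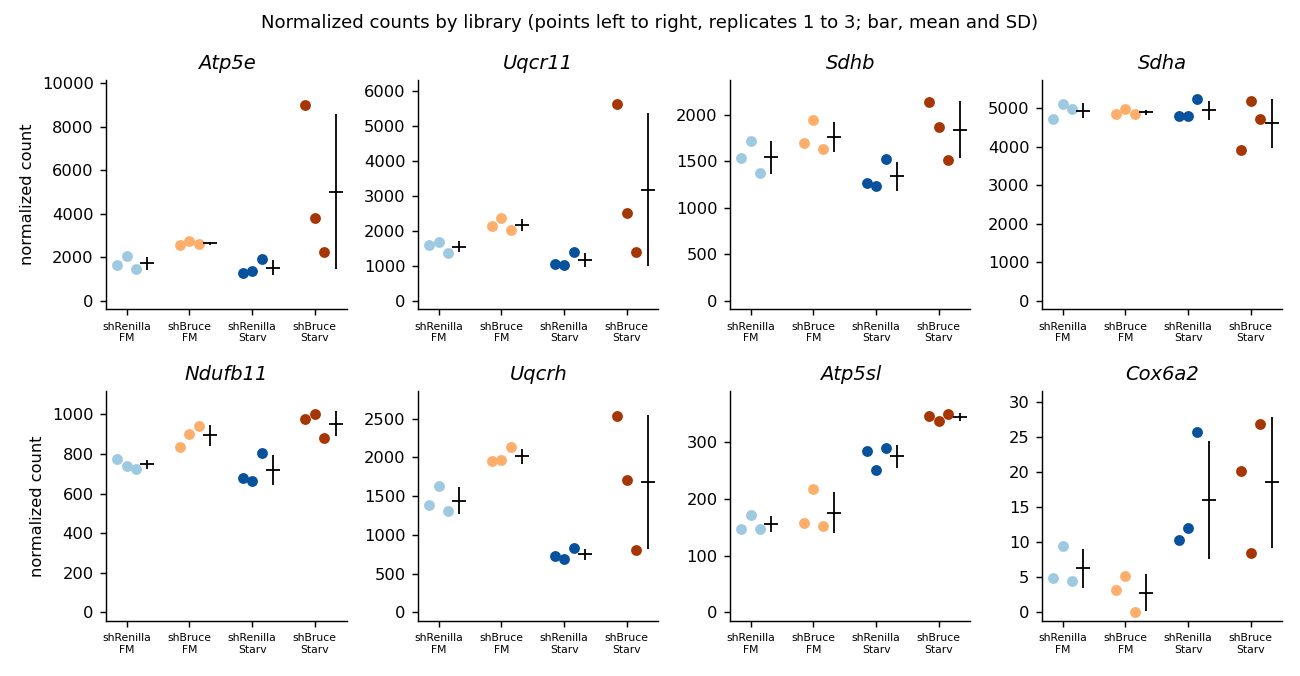
Normalized counts of 8 members in the 12 libraries (points, replicates 1 to 3 from left to right in each condition; black, mean and SD, n = 3; linear axes). Atp5e, Uqcr11 and Uqcrh are high in shBruce Starv replicates 1 and 2 and near the shRenilla level in replicate 3, Sdha is nearly level throughout, and Atp5sl is higher in all 6 Starv libraries than in all 6 FM libraries.

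Counts of calls in Starv differed between the complexes, as did their transcript lengths. In Starv, 29 of 35 tested subunits of complex I were higher in shBruce cells, 1 of 4 of complex II, 5 of 8 of complex III, 10 of 12 of complex IV and 8 of 17 of complex V. The median log2 fold changes were 0.76, 0.08, 0.80, 0.87 and 0.66 in the same order. Without shBruce Starv replicate 1 the counts were 5, 0, 1, 0 and 4 with medians of 0.55, 0.10, 0.48, 0.50 and 0.54, and without replicate 3 they were 31, 1, 7, 10 and 10. The shares were not tested against each other. Of all tested genes, 12.8% were higher with all libraries, 1.84% without replicate 1 and 22.2% without replicate 3. The median transcript lengths of complexes I to V were 680, 1186.5, 519.5, 635 and 742 bases, and their part in the shares was not tested.

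Members without a call included large core subunits such as Ndufs1, Uqcrc1, Uqcrc2, Atp5a1, Atp5b and Sdha. They also included Cox8a, Cox6a2 and Atp5g2, whose transcripts are under 1 kb, while the core subunits Ndufv1, Ndufv2 and Sdhb were called. Sdha had 4805, 4806 and 5229 normalized counts in shRenilla Starv and 3920, 5187 and 4717 in shBruce Starv, with a log2 fold change of -0.10 ± 0.116 (95% confidence interval -0.35 to 0.15). Atp5b had 25910, 26820 and 29200 normalized counts in shRenilla Starv and 27170, 30710 and 27620 in shBruce Starv, a log2 fold change of 0.06 with a 95% confidence interval from -0.17 to 0.29. Both intervals lie below the median of the members. Sdhc and Sdhd, at 0.07 ± 0.111 and 0.10 ± 0.110, also missed the threshold.

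The size of the difference in Starv went with transcript length. The representative transcripts of the tested members had a median length of 685.5 bases, against 2509 bases for all tested genes. Of the 54 members with a transcript under 1 kb, 47 (87.0%) were higher in shBruce cells and the median log2 fold change was 0.92. Of the 22 longer members, 6 (27.3%) were higher and the median was 0.25. All tested genes with transcripts under 1 kb also leaned the same way, with 541 of 1498 higher, 36 lower and a median of 0.46. Without shBruce Starv replicate 1, 10 of the shorter and 0 of the longer members were called, with medians of 0.58 and 0.27. Of all tested genes in the same length classes, 6.21% and 1.22% were then higher, with medians of 0.34 and -0.04. Without replicate 3, 49 and 10 members were called, with medians of 1.18 and 0.32. In that fit 53.2% and 17.9% of all tested genes in these classes were higher, with medians of 0.58 and -0.11. Spearman's rho between log2 fold change and length was -0.62 over the 76 members and -0.50 over 12052 genes, as a description across genes, which share the libraries and are not independent replicates.

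**Figure D3:**
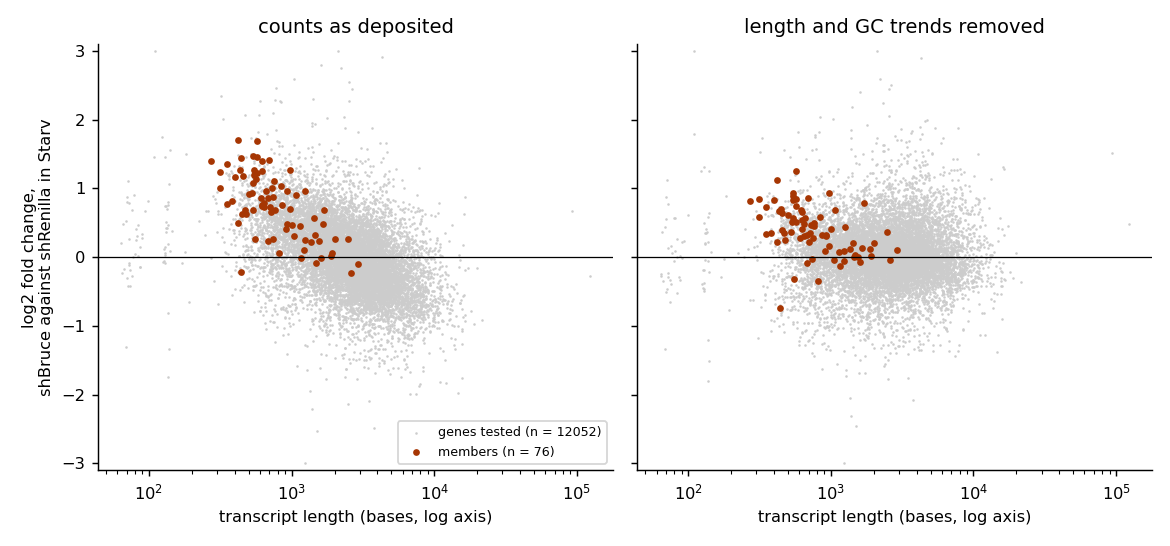
Log2 fold change in Starv (shBruce against shRenilla) against transcript length (log axis) for 12052 tested genes (grey) and 76 members (red), from the counts as deposited (left) and after each library's trends with length and GC content were removed (right). The members sit at the short end, above 0; on the right the grey cloud is level and most members remain above 0. A few values beyond ±3 are drawn at the edge.

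When smooth length and GC trends were fitted in each library and taken out (an alternative to the counts as deposited), the median log2 fold change of the members in Starv was 0.36, that of all tested genes 0.0215, and the count fell from 53 to 6 members higher and 0 lower, against 4.49% of all tested genes higher in that fit. Those 6 were Ndufa2, Atp5e, Atp5j2, Ndufs4, Ndufb5 and Ndufb10, with log2 fold changes of 1.26, 1.12, 0.89, 0.78, 0.55 and 0.46. Members under 1 kb kept a median of 0.49 in this fit, against 0.085 for all tested genes under 1 kb. Whether the trend reflects RNA quality, library preparation or the cells was not tested. Without shBruce Starv replicate 1, a fit chosen after the data were seen, edgeR called 0 members with the trends removed and the median was 0.23. That fit called 0.53% of all genes higher and 0.343% lower.

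By library, the median level of the members ran opposite to the length trend. The median deviation of the 76 members from their own 12-library mean was -0.17, -0.0020 and -0.26 on the log2 scale in shRenilla FM, 0.14, 0.18 and 0.22 in shBruce FM, -0.50, -0.48 and -0.13 in shRenilla Starv, and 0.77, 0.42 and -0.12 in shBruce Starv. In the same order, Spearman's rho between a gene's deviation and its transcript length over all tested genes was 0.25, -0.0054 and 0.38, then -0.21, -0.19 and -0.19, then 0.45, 0.42 and 0.09, and -0.29, -0.53 and 0.08. The libraries with low member levels were those in which long transcripts were relatively high. Not all members followed this median: in shBruce Starv replicate 1, where it was highest, the median of the 4 complex II genes was -0.13. The pooled SD of the members' median between replicates was 0.26, and the widest spread was in shBruce Starv. In these bulk samples, fewer cells of a type and less RNA per cell cannot be told apart.

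**Figure D4:**
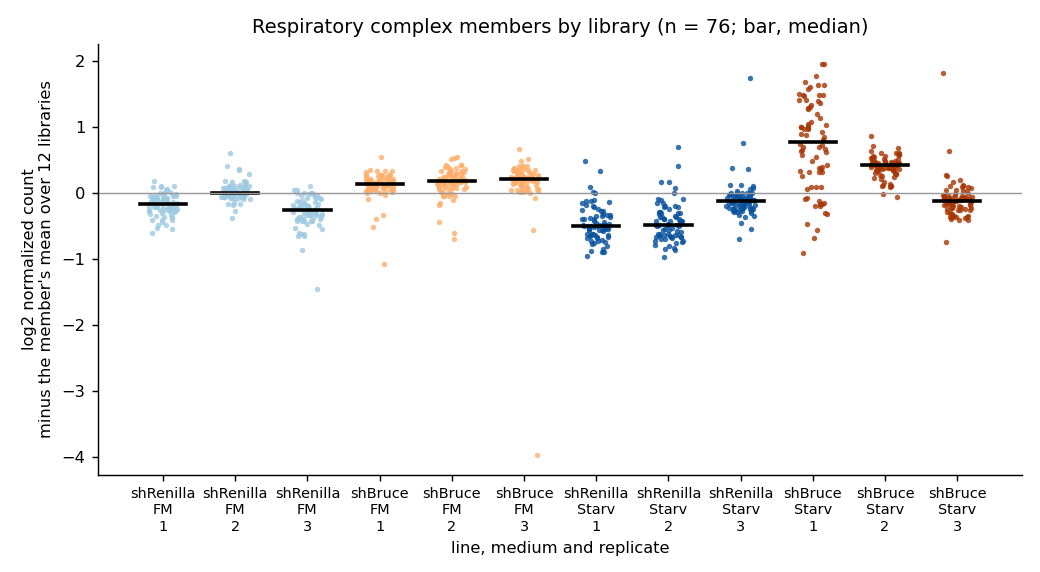
Deviation of each of the 76 tested members from its mean over the 12 libraries (log2 normalized count with 0.5 added), by library; horizontal bars are medians. The shBruce FM medians lie between 0.14 and 0.22, above the 3 shRenilla FM medians, while the shBruce Starv medians spread from 0.77 to -0.12.

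In FM the direction was the same but the differences were smaller. The edgeR test called 0 of the 76 members, as it called 0.0% of all tested genes, and DESeq2 and limma-voom also called 0 members. At an unadjusted p under 0.05 in edgeR there were 5 of the 76 members, against 1750 of all 12154 tested genes. The median log2 fold change was 0.31 for the members and 0.0064 for all tested genes, and 73 of 76 members were above 0. All 3 shBruce FM libraries lay above all 3 shRenilla FM libraries for 56 members, against 16.4% of all tested genes. The reverse held for 1 member, against 2069 of all 12154 tested genes. A fit of the FM libraries alone called 14 members, all of them higher, where it called 1.89% of all genes higher and 3.22% lower. Limma-voom with sample quality weights called 48, also all higher, against 13.7% of all genes higher and 16.6% lower.

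The 3 members with the smallest p in FM encode accessory subunits of complex I. Ndufa13, also known as GRIM-19, had 1101, 1347 and 1039 normalized counts in shRenilla FM and 1543, 1758 and 1641 in shBruce FM (log2 fold change 0.50 ± 0.218, adjusted p = 0.324 by edgeR). Ndufb9 had 2209, 2493 and 2003 against 2716, 2996 and 2780 normalized counts (0.34 ± 0.150, adjusted p = 0.329 by edgeR), and Ndufb11 had 774, 741 and 726 against 837, 902 and 941 (0.26 ± 0.115, adjusted p = 0.332 by edgeR). The libraries of the 2 lines did not overlap in any of them.

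The count of members called for 2 h of starvation was low in the joint edgeR fit and depended on the fit. In shRenilla MEFs, 1 of 76 members rose and 1 fell, against 9.69% and 7.27% of all tested genes, and the median log2 fold change of the members was -0.20 with 6 of 76 above 0. In a fit of the shRenilla libraries alone 2 members were higher and 13 lower, against 22.4% and 19.5% of all genes, and with sample quality weights in limma-voom 3 were higher and 46 lower, against 28.6% and 29.4%. In shBruce MEFs, 2 rose and 0 fell, against 12.4% and 10.6% of all tested genes, and the median was 0.22 with 56 of 76 above 0. The shBruce median was -0.03 without shBruce Starv replicate 1, and 34 members were called higher without shBruce Starv replicate 3, against 16.1% of all genes.

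Atp5sl rose in both lines. This symbol follows the ATP synthase naming, but the gene is now called Dmac2, and its product is known as a factor in the assembly of the membrane arm of complex I. It had 148, 173 and 148 normalized counts in shRenilla FM and 284, 252 and 290 in shRenilla Starv, a log2 fold change of 0.82 ± 0.153 (edgeR adjusted p = 0.00270). In shBruce cells it went from 157, 218 and 153 to 347, 337 and 349 normalized counts (0.97 ± 0.154, edgeR adjusted p = 0.000766). All Starv libraries lay above all FM libraries in both lines, and none of the alternatives run ended the call, with adjusted p values up to 0.0195 in shRenilla and 0.0246 in shBruce cells. With length and GC trends removed the values were 0.85 and 0.86.

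Uqcrh, the hinge protein of complex III that supports the contact of cytochrome c1 with cytochrome c, fell in shRenilla cells from 1381, 1634 and 1310 to 728, 689 and 832 normalized counts, without overlap. The log2 fold change was -0.94 ± 0.286 (edgeR adjusted p = 0.0378). The call was lost when any of the 6 shRenilla libraries, or shBruce FM replicate 1 or 2, was left out, with an adjusted p of up to 0.128. In shBruce cells Uqcrh had 1956, 1967 and 2129 normalized counts in FM and 2537, 1708 and 803 in Starv, which overlapped (-0.27 ± 0.282, adjusted p = 0.523 by edgeR). Cox7b, a small subunit of complex IV, came next in shRenilla cells at -0.44 ± 0.155 (adjusted p = 0.0703 by edgeR), and with length and GC trends removed it was called in both lines, at -0.53 in shRenilla and -0.52 in shBruce cells.

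Cox6a2, the other call in shBruce cells, had 3.19, 5.23 and 0 normalized counts in FM and 20.2, 8.54 and 26.9 in Starv, and in shRenilla cells it had 4.90, 9.43 and 4.48 in FM and 10.4, 12.1 and 25.7 in Starv. The log2 fold changes were 2.70 ± 0.718 (edgeR adjusted p = 0.0163) and 1.34 ± 0.589 (adjusted p = 0.140). These are at most 29 reads in a library, and the gene passed the filter on low counts through the Starv libraries, where it is high, so this call does not count as support for a rise. In a fit of the shBruce libraries alone it did not pass the filter, and its adjusted p reached 0.0759 over the alternatives. The summed striated muscle markers ranged from 22.8 to 63.2 normalized counts over the FM libraries and from 24.2 to 90.8 over the Starv libraries, and their part in the result was not tested. Ndufa2 was next in shBruce cells, at 0.93 ± 0.364 (adjusted p = 0.0836 by edgeR), with 2066, 2177 and 2252 normalized counts in FM and 7442, 3112 and 1831 in Starv. The value was 0.17 without shBruce Starv replicate 1 and 1.28 without replicate 3.

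Whether starvation acted differently in the lines was tested by the interaction of line and medium. It called 0 members in edgeR, as it called 0.0% of all tested genes, and 0 members in DESeq2 and limma-voom. At an unadjusted p under 0.05 in edgeR there were 5 of the 76 members, against 474 of all 12154 tested genes. The median interaction was 0.43 on the log2 scale, but it was 0.17 without shBruce Starv replicate 1. A difference between the lines in their response to starvation was therefore not shown for any member. The comparison of the lines in Starv and the response of shRenilla cells share the shRenilla Starv libraries, which held low member levels in replicates 1 and 2.

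Genes with related functions gave the following counts in Starv (shBruce against shRenilla), where 12.8% of all tested genes were higher and 11.2% lower. Cycs, which encodes cytochrome c, and Cyc1, the cytochrome c1 subunit of complex III that the symbol rule does not take, were both higher, at 1.07 ± 0.311 and 0.46 ± 0.137. Neither was called without shBruce Starv replicate 1 (0.55 and 0.40), and Cyc1 was not called with length and GC trends removed (0.14). Of 43 tested assembly factors of the complexes, 15 were higher, 1 was lower and the median log2 fold change was 0.30. The largest was Uqcc2, a complex III factor, at 1.31 ± 0.318, and the lower one was Coa5, a complex IV factor, at -0.43 ± 0.110. Mitochondrial ribosomal proteins had 45 of 76 genes higher, 0 lower and a median of 0.61, and cytosolic ribosomal proteins 50 of 76 higher, 0 lower and a median of 0.80, so that the shift of the members was shared with genes of other functions. The 13 enzymes of the citric acid cycle, which share complex II with the respiratory chain, had a median of 0.05, with Idh3g higher at 0.38 ± 0.126 and Cs (citrate synthase) lower at -0.34 ± 0.108. With length and GC trends removed the counts higher fell to 5 assembly factors, 12 mitochondrial ribosomal proteins (median 0.32), 21 cytosolic ribosomal proteins (median 0.43) and 0 enzymes of the cycle, and the calls of Coa5, Cs and Uqcc2 ended. Without shBruce Starv replicate 1 the counts higher were 1, 5, 29 and 0. Of all genes, 4.49% were higher with the trends removed and 1.84% without that replicate.

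Of 11 tested regulators, Gabpa, the DNA-binding subunit of GABP, and Gabpb2, a partner subunit, were lower in shBruce cells in Starv (-0.99 ± 0.259 and -0.57 ± 0.194), and 0 were higher. Of all tested genes, 11.2% were lower and 12.8% higher. With length and GC trends removed Gabpa was at -0.84 and still called, while Gabpb2 was at -0.064 and not called. When only the Starv libraries were fitted neither was called. On starvation 3 of the 11 regulators were called in both lines, 2 higher and 1 lower. Of all tested genes, 9.69% were higher and 7.27% lower in shRenilla cells, and 12.4% and 10.6% in shBruce cells. Ppargc1b, a PGC-1 coactivator, rose by 1.76 ± 0.329 in shRenilla and 2.17 ± 0.350 in shBruce cells on the log2 scale, and Tfb1m, which methylates mitochondrial ribosomal RNA, rose by 0.97 ± 0.144 and 0.98 ± 0.148. Pprc1, another PGC-1 coactivator, had log2 fold changes of -0.66 ± 0.147 and -0.64 ± 0.147. No relation between these genes and the members was tested.

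Promoter windows from 250 bases before to 50 bases after the start were read from RefSeq (GRCm38.p6) for 69 of the 84 members and 17830 genes of the table. Letters were searched on both strands. The ETS letters CCGGAAG occurred in 23.2% of the members' promoters, 12.9% of all promoters and 20.8% of those of the tested genes. The longer form CCGGAAGT, which contains them, was in 7.25%, 5.75% and 9.53%, and the TATA letters TATAAA in 10.1%, 14.4% and 8.52%, so that the order of members and background turned with the background for both. The NRF1 letters GCATGCGC were in 14.5%, 3.99% and 6.22%, and the YY1 letters AAGATGGC in 15.9%, 3.61% and 5.4%. Any of CCGGAAG, GCATGCGC and AAGATGGC was present in 44.9% of the members' promoters and 18.7% of all, or 29.3% of those of the tested genes. Among members called higher in shBruce Starv, 21 of 47 held at least 1 of these 3, and among those tested and not called 10 of 17. A match describes letters and not a binding site.

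The promoters of 5 members are shown from 200 bases before the RefSeq start up to the first base that GENCODE annotates as part of the gene, on the gene's strand and 5′ to 3′, with the ETS, NRF1, YY1 and TATA letters (either strand) in capitals. Atp5e (chr2:174464106-174464301, minus strand) and Uqcr11 (chr10:80406831-80407021, minus strand) were among the largest differences in Starv, Uqcrh (chr4:116075072-116075270, minus strand) fell on starvation, Cox6a1 (chr5:115348982-115349158, minus strand) shows overlapping NRF1 letters of both strands, and Sdha (chr13:74350281-74350440, minus strand) did not pass the test and holds none of these letters in the stretch shown.
Atp5e: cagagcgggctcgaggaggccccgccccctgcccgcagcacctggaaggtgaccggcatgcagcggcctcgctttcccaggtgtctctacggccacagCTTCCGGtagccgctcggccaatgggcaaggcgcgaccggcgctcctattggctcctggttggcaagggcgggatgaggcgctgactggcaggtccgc
Uqcr11: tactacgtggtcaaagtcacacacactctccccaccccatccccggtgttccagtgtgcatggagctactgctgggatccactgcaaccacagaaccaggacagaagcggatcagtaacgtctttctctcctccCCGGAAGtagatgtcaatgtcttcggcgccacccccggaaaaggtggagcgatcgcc
Uqcrh: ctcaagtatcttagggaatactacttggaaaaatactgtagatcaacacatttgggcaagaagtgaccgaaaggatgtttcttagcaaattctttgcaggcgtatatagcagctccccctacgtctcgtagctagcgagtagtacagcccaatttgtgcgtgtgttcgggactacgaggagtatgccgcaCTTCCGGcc
Cox6a1: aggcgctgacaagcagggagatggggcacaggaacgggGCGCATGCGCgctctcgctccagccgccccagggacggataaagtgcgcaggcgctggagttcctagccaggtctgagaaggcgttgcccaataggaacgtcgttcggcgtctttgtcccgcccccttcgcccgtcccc
Sdha: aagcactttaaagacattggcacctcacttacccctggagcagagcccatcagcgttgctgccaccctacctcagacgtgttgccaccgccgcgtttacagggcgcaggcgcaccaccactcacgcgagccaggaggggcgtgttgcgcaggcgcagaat
The ETS letters start 102 bases before the start of Atp5e, 66 bases before that of Uqcr11 and 10 bases before that of Uqcrh. In Starv, Cox6a1 had 2248, 2225 and 3011 normalized counts in shRenilla and 9828, 4567 and 3032 in shBruce cells, a log2 fold change of 1.22 ± 0.315 (adjusted p = 0.0256 by edgeR). Without shBruce Starv replicate 1 it was 0.59 (adjusted p = 0.0631 by edgeR) and without replicate 3 it was 1.52.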

How the data were processed

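Total RNA of MEFs had been enriched for poly(A), sequenced as single 50-base reads, cleared of rRNA reads and mapped to mm10 with STAR (2.4.0d), and the authors deposited raw counts of reads per gene symbol made with HTSeq (0.5.4p3). The gene annotation, strand setting and overlap mode are not given in the sources used here. All 12 columns were assigned by their labels, and 0 columns were left unused.

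Counts were tested with edgeR (4.0.16) in R (4.3.3): TMM normalization, filterByExpr, a quasi-likelihood fit of the 4 conditions over all 12 libraries, two-sided tests and Benjamini-Hochberg adjustment over 12154 genes at 0.05. This joint fit shares 1 estimate of the spread. DESeq2 (1.42.0) and limma (3.58.1) were alternatives, with other normalizations, filters, a replicate block, removal of length and GC trends (splines with 4 degrees of freedom) and each library left out. Transcript lengths and shared 50-base windows came from GENCODE M21 (GRCm38), one transcript of median length per gene, promoters from RefSeq (GRCm38.p6). Tested on simulated data for the FM comparison (12038 genes), the fit recovered 189 of 198 changed genes with 19 false calls. Every simulated gene had the same dispersion, and the length trends and outlying libraries of these data were left out. The simulation thus checks the code and does not measure how many true changes the fit finds in these data. Exact permutation tests over 3 against 3 libraries were two-sided.

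The members and gene lists were chosen with earlier results of these data known. Named members were those with the 5 largest and 5 smallest called fold changes in each comparison, or the 3 smallest p-values where fewer than 3 passed, the 2 highest per complex per kb, the Sdh genes and the isoform families. Ndufs1, Uqcrc1, Uqcrc2, Atp5a1, Atp5s, Atp5l, Cox7c and Ndufs5, and the genes of the related lists, were named after their values were seen. The same holds for Ndufs4, Ndufb5, Ndufb10 and Ndufa12.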

Additional observations from a re-analysis of the deposited data

How the results depend on the processing

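In Starv, the 53 members called became 0 when only the groups compared were fitted, 6 with length and GC trends removed, 0 with those trends removed and a replicate block, and 0 with trends removed and either shBruce Starv replicate 1 left out or only the groups compared (both chosen after the data were seen). Of all genes, 0.0%, 4.49%, 0.0%, 0.53% and 0.0% were higher in these fits, in the same order. Leaving out single libraries gave 0 to 59 (0.0% to 22.2% of all genes higher) and the replicate block 42 (7.34% of all genes higher). The median of 0.75 moved to 0.36, 0.35, 0.23 and 0.35 in the 4 fits with trends removed, and to 0.51 to 0.93 with single libraries left out. In FM, the count of 0 became 14 with only the groups compared and 48 with quality weights, all higher, against 1.89% and 13.7% of all genes higher. For starvation of shRenilla cells, the 2 calls became 49 with quality weights (3 higher, 46 lower, against 28.6% and 29.4% of all genes). They became 15 with only the groups compared (2 higher, 13 lower, against 22.4% and 19.5%) and 1, higher, with the replicate block (against 8.58%). With trends removed there were 7 (1 higher, 6 lower, against 11.4% and 13.0%), and with a block added 4 (1 and 3, against 10.4% and 11.2%). Trends removed without shBruce Starv replicate 1 gave 13 (1 and 12, against 15.7% and 21.1%). Trends removed with only the groups compared gave 32 (3 and 29, against 23.2% and 32.9%). Single libraries left out gave 1 to 9, with 9 without shBruce Starv replicate 3 (1 and 8, against 14.1% and 11.4%). For shBruce cells, the 2 calls became 4 with DESeq2, 5 with quality weights, 4 with no filter and 1 with at least 10 counts in every sample. All of these were higher, against 13.9%, 13.5%, 7.25% and 12.5% of all genes. With only the groups compared 1 was higher, against 4.68%. With trends removed there were 9 (3 higher, 6 lower, against 13.8% and 17.5%), and the same with the block (against 12.5% and 16.1%). Trends removed without shBruce Starv replicate 1 gave 11 (2 and 9, against 14.7% and 19.6%). Trends removed with only the groups compared gave 1 higher, against 5.29%. Single libraries left out gave 2 to 34, with 34 higher without shBruce Starv replicate 3, against 16.1%. The median for shBruce cells became -0.063 with trends removed without shBruce Starv replicate 1. The interaction called 0 members in every fit, its median moving from 0.43 to 0.052 in that same fit and to 0.17 to 0.62 with single libraries left out. The causes were not tested.

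In Starv, 15 of the 76 members changed sign under at least 1 alternative, 0 of them among the 53 called. For those named here by the rule the values were as follows. With trends removed, with the block added, without shBruce Starv replicate 1 and with only the groups compared, Sdhc gave -0.35, -0.35, -0.23 and -0.35, Sdha 0.097, 0.092, 0.15 and 0.098, Cox8a -0.32, -0.34, -0.13 and -0.33, and Cox6a2 -0.092, -0.13, -0.058 and -0.096. Sdhd gave -0.050, -0.053 and -0.050 in the first, second and last of these. Quality weights gave -0.17 for Cox6a2 and 0.045 for Sdha. Leaving out single libraries gave -0.016 to 0.12 for Sdhc and -0.013 to 0.15 for Sdhd (both negative without shBruce Starv replicate 2), -0.28 to 0.72 for Cox6a2 (negative without shRenilla Starv replicate 1 or shBruce Starv replicate 3), and -0.48 to 0.053 for Atp5g2 (positive without shRenilla Starv replicate 3).

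Correlations between the deviations of same-numbered replicates ran from -0.456 to 0.347, with 5 of 18 above 0.1, and a differently numbered pair reached 0.509. Each library's length trend had not been taken out of these deviations. The correlations therefore cannot decide whether the numbers pair the libraries. Over 42 pairs of a named gene and a comparison, 746 of 1045 alternative values kept direction and side of the threshold. The counts of members called and their medians, which moved as given above, are not among these values. With 3 libraries a group and 7717265 counts in the smallest, members such as Cox6a2 with few counts are the least certain.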

Other observations

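The relation of the members' log2 fold change to transcript length in Starv remained after the trends of all genes had been removed. Spearman's rho was -0.62 from the counts as deposited and -0.52 with trends removed over the 76 members, against -0.50 and -0.054 over 12052 genes. For starvation of shBruce cells the members gave -0.45 and -0.53, against -0.13 and -0.007 over all genes, whereas in FM they gave -0.48 and -0.18. These are descriptions across genes that share the same libraries.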
